A study of Homo sapiens with 4 samples.

Results

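Leukotriene and prostanoid synthesis was followed through 9 genes, PLA2G4A, ALOX5, ALOX5AP, LTA4H, LTC4S, PTGS1, PTGS2, TBXAS1 and PTGES, in THP1 cells after MLL-AF9 knockdown. Every probe that carried the name of one of these genes, was no control spot and had a quality weight above 0 on all 4 arrays was taken. This rule gave 11 of 26219 analysed probes, printed on 38 of 33323 analysed spots, and all 9 genes were represented. One further ALOX5 probe, A_33_P3356007, was left out because its weight was 0 throughout. Its intensity was 31 with siRNA-A, 32.5 with siRNA-B, 32 with control siRNA-1 and 30 with control siRNA-2, and it was well above background on 0 arrays.

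THP1 is an established AML M5 line with the MLL-AF9 fusion. MLL-AF9 was depleted with siRNA-A (siRNA3 in the labels) or siRNA-B (siRNA4), which are directed to the same fusion transcript, and control siRNA-1 and control siRNA-2 served as controls. All 4 groups of cells went through the same lipid transfections on days 0, 3 and 6, were moved on day 6 to another medium with serum lowered from 10% to 0.5% and were harvested on day 8. Every array held pooled RNA of 5 experiments, which left 2 knockdown and 2 control arrays of a single cell line, and the spread among single experiments was not measured. The 4 single-colour Agilent arrays shared 1 slide on which the knockdown arrays lay next to each other, so that treatment and slide position cannot be told apart.

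Eicosanoid synthesis starts with arachidonic acid, which cytosolic phospholipase A2 (PLA2G4A) cuts from membrane lipids. In the leukotriene branch, 5-lipoxygenase (ALOX5), helped by its activating protein FLAP (ALOX5AP), forms leukotriene A4, which LTA4 hydrolase (LTA4H) turns into the neutrophil attractant leukotriene B4 and LTC4 synthase (LTC4S) into the cysteinyl leukotrienes. In the prostanoid branch, the cyclooxygenases PTGS1 and PTGS2 form prostaglandin H2, from which thromboxane synthase (TBXAS1) and prostaglandin E synthase (PTGES) make thromboxane A2 and prostaglandin E2. Monocytes and macrophages are known producers of both classes of mediator.

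The oligonucleotides that measured the leukotriene branch, and the thromboxane synthase oligonucleotide that spans a splice junction, are shown because each result below is the brightness of such a sequence. They are written 5′ to 3′, positions are of build hg19 from the array files, and capitals mark the stop codon that closes the LTA4H reading frame.
ALOX5, A_23_P104464, first 30 of its 60 bases, chromosome 10 from 45941417 to 45941476, plus strand: gatgtctattcttgttggagacatgggatg
ALOX5AP, A_24_P347378, chromosome 13 from 31338155 to 31338214, plus strand: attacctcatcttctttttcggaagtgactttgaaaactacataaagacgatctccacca
LTA4H, A_23_P388670, chromosome 12 from 96394767 to 96394826, minus strand: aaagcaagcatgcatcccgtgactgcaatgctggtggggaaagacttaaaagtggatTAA
LTA4H, A_33_P3410093, chromosome 12 from 96415926 to 96415985, minus strand: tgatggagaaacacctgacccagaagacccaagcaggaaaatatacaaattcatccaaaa
LTC4S, A_24_P397294, chromosome 5 from 179222983 to 179223272, plus strand: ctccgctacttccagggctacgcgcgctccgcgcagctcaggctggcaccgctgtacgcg
TBXAS1, A_24_P274814, chromosome 7 from 139706924 to 139715523, plus strand: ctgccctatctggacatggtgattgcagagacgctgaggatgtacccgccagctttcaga

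The LTC4S oligonucleotide covers 290 genomic positions with its 60 bases and skips 230, and that of TBXAS1 covers 8600 and skips 8540, so that both join sequence from separate exons. The other oligonucleotides printed here lie in 1 uninterrupted stretch each.

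The targeted transcript was checked first. Of MLLT3, the gene that encodes AF9, probe A_23_P216693 gave log2 intensities of 6.82 with siRNA-A, 6.87 with siRNA-B, 7.59 with control siRNA-1 and 7.61 with control siRNA-2, a log2FC of -0.76 (SE 0.11, adjusted p = 0.0639 in limma). The second MLLT3 probe had a log2FC of -0.63, and the 4 MLL probes had -0.41 (unadjusted p = 0.00590 in limma), -0.085, -0.027 and 0.048, of which 0 were called. The MLL probe at -0.085 was not well above background with siRNA-B. The fusion transcript holds only the 5′ part of MLL and the 3′ part of AF9, and of the MLL probes the one at -0.41 lay nearest the 5′ end of the gene. Which of the other MLL probes lie outside the fusion was not determined here. Such probes would not check the fusion transcript, and the MLLT3 probes may also read normal AF9 transcript. On all 4 arrays the median log2 intensity lay between 8.56 and 8.65. Of the spots other than control spots, 70.0% and 71.2% were well above background on the knockdown arrays, below the 74.3% on both control arrays. The part of this difference in the results was not tested. As a check of the label of the line, 7 of 9 monocytic markers had a probe, and all 7 were well above background.

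ALOX5 rose after MLL-AF9 knockdown, and it was the one gene of the 9 that passed the threshold used here, an unadjusted p under 0.005 in limma. Of all probes, 1.32% passed this threshold, 0.584% being higher after knockdown. ALOX5 encodes the enzyme that commits arachidonic acid to leukotrienes. The log2 intensity of A_23_P104464 was 8.71 with siRNA-A, 8.31 with siRNA-B, 7.71 with control siRNA-1 and 8.04 with control siRNA-2. Both knockdown arrays lay above both control arrays, with siRNA-A the highest and control siRNA-1 the lowest. The mean was 8.51 ± 0.28 (SD, n = 2) after knockdown and 7.88 ± 0.23 (SD, n = 2) in the controls, which gave a log2FC of 0.63 (SE 0.16, 95% interval 0.25 to 1.00) or a 1.55-fold higher intensity. The limma p was 0.00449 before adjustment and 0.363 after Benjamini-Hochberg adjustment over all 26219 probes, so that the change did not pass the adjusted threshold of 0.05. The lower knockdown array exceeded the higher control array by 0.26 log2 units, less than the distance of 0.40 between siRNA-A and siRNA-B and that of 0.33 between the controls. With 2 arrays against 2, an exact two-sided permutation test cannot go below 0.333.

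The rise of ALOX5 depended on the way of processing for its call but not for its direction. The call was lost with both the scaled and the unscaled background-subtracted signal, with each of the 3 normalizations between arrays and without any single array, where the log2FC ranged from 0.43 without siRNA-A to 0.83 without siRNA-B. In all 12 alternatives the log2FC was positive, and 3 of them kept the unadjusted p under 0.005. More cells with ALOX5 and more ALOX5 RNA per cell cannot be told apart in such bulk samples.

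**Figure D1:**
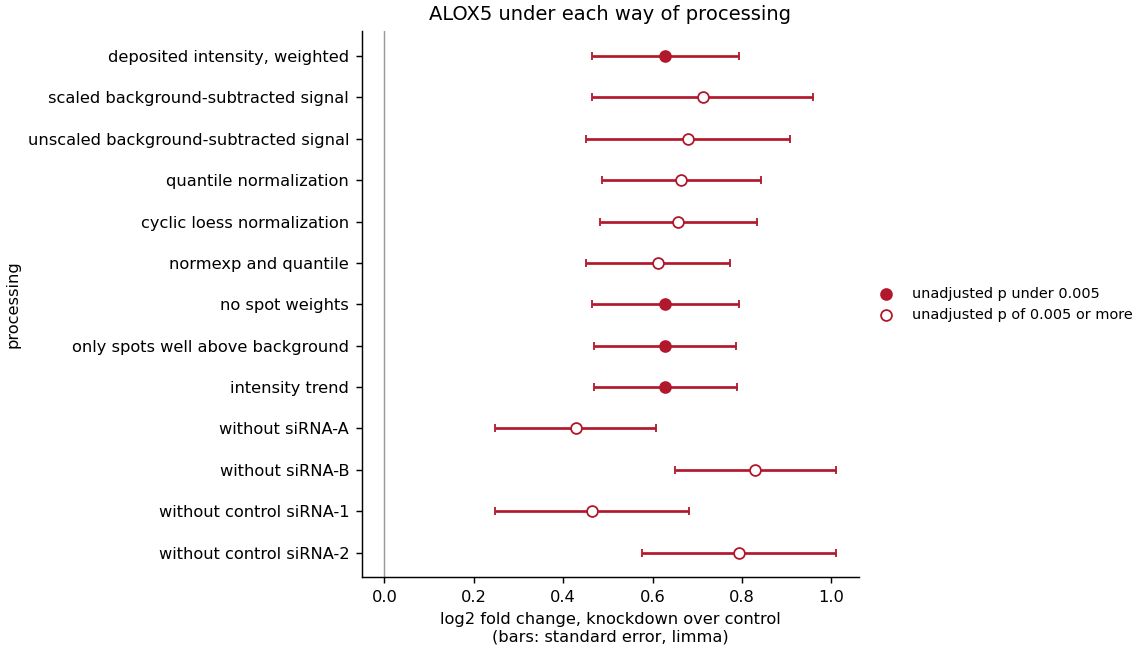
ALOX5 log2FC (x axis, knockdown over control) in the reported fit and 12 alternatives (y axis), with bars for the limma standard error and filled points for an unadjusted p under 0.005. Every point lies above 0, from 0.43 to 0.83, and 4 of the 13 are filled.

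The ALOX5 oligonucleotide was printed on 10 spots of each array, which repeat the measurement on the same RNA and are no further replicates. The spot intensity had a median of 419 (lowest 334.5, highest 499.5) with siRNA-A and of 325 (251 to 396.5) with siRNA-B. It was 225.5 (173.5 to 248) with control siRNA-1 and 283 (214 to 302) with control siRNA-2. At every one of the 10 positions the arrays followed the same order, siRNA-A above siRNA-B above control siRNA-2 above control siRNA-1. The log2FC of single spots lay between 0.44 and 0.76, and 7 of the 10 spots had an unadjusted p under 0.005 in limma, against 1.53% of all spots. The lowest Benjamini-Hochberg adjusted p of these spots was 0.120 in limma.

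**Figure D2:**
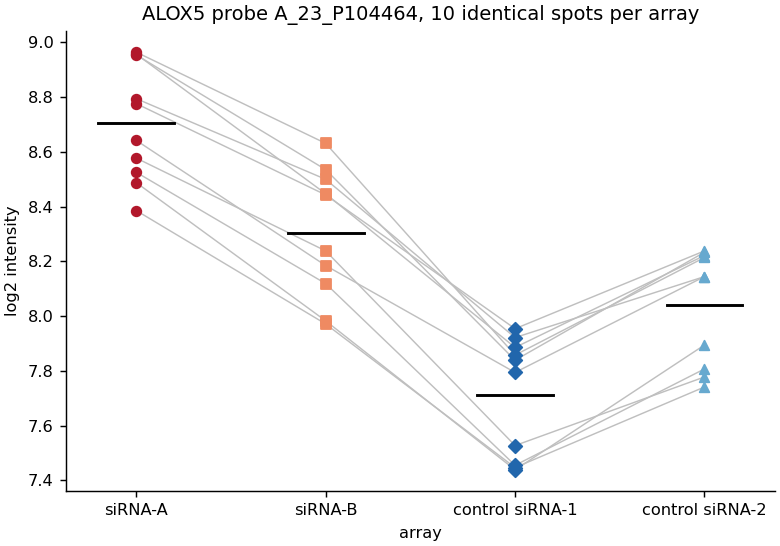
Log2 intensity (y axis) of the 10 identical ALOX5 spots on each of the 4 arrays (x axis). Grey lines join the same spot position, black bars are array means, and the order of the arrays is the same at all 10 positions.

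CD14, the lipopolysaccharide coreceptor of monocytes, was the single monocytic marker called beside ALOX5, with log2 intensities of 8.39 with siRNA-A, 8.71 with siRNA-B, 7.52 with control siRNA-1 and 7.47 with control siRNA-2 (log2FC 1.05, adjusted p = 0.0355 in limma). This adjusted p stayed under 0.05 in 3 of the 12 alternatives and ranged from 0.0123 to 1.00. The other 6 markers, CD33, CSF1R, ITGAM, SPI1, CD68 and MPO, had log2FC between -0.22 and 0.19. Summed over the 7 markers, the intensity ranged from 23088 to 26319.2 after knockdown and from 25211.8 to 25420.5 in the controls, a sum led by CD33 and SPI1 that hardly reflects CD14. The markers of mast cells and basophils, other known sources of leukotrienes, summed to 450.2 to 504.5 after knockdown and 433.2 to 460.3 in the controls, with 0 of 5 probes called. Those of megakaryocytes and platelets, which make thromboxane, summed to 1450 to 1473 and 1516.5 to 1832, a sum led by GP9. Single markers of this list differed in direction, with both knockdown arrays above the controls for ITGA2B (log2FC 0.13), GP1BA (0.29) and PF4 (0.22) and below them for GP9 (-0.22) and PPBP, which was not well above background after knockdown. Knockdown arrays thus lay beyond the controls in 100% of these 5 probes, against 36.6% of all probes. ITGA2B, GP1BA and PF4 were dim, at log2 intensities from 5.43 (PF4) to 6.17 (ITGA2B). GP1BA had an unadjusted p of 0.0446 and an adjusted p of 0.609 in limma. Lymphocyte markers, led by CD79A, summed to 2282.8 to 2399.8 after knockdown and 2281.95 to 2372.75 in the controls, and 0 of 5 probes were called in either of these lists. The part of these markers in the ALOX5 result was not tested.

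The genes downstream and beside ALOX5 in the leukotriene branch did not pass the threshold. LTA4H, the hydrolase for leukotriene B4, had both knockdown arrays above both control arrays at each of its 2 probes, an order seen in 15.2% of all probes. On A_23_P388670 the log2 intensity was 12.85 with siRNA-A, 12.92 with siRNA-B, 12.61 with control siRNA-1 and 12.71 with control siRNA-2, a log2FC of 0.23 (SE 0.11, 95% interval -0.030 to 0.48, adjusted p = 0.686 in limma). A_33_P3410093, which lies in an earlier stretch of the gene, gave 9.10, 9.14, 9.04 and 9.07 in the same order, a log2FC of 0.065 (95% interval -0.18 to 0.31). There the groups were only 0.024 apart, less than the distance of 0.045 between the knockdown arrays and that of 0.037 between the controls. Both LTA4H probes kept a positive log2FC in all 12 alternatives, between 0.17 and 0.29 for the former and between 0.042 and 0.19 for the latter.

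ALOX5AP, which presents arachidonic acid to ALOX5, had log2 intensities of 13.40 with siRNA-A, 13.46 with siRNA-B, 13.39 with control siRNA-1 and 13.53 with control siRNA-2. The groups overlapped, and the log2FC was -0.034 (SE 0.11, 95% interval -0.29 to 0.23), a direction that turned positive (0.014 to 0.075) under all 5 alternatives with another signal or normalization. LTC4S, the glutathione transferase of the cysteinyl leukotrienes, gave 10.01 with siRNA-A, 10.25 with siRNA-B, 10.29 with control siRNA-1 and 9.97 with control siRNA-2. Its groups overlapped as well, with control siRNA-1 the highest and control siRNA-2 the lowest array, and the log2FC was 0.0028 (SE 0.15, 95% interval -0.33 to 0.33).

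PLA2G4A, which supplies arachidonic acid to both branches, was measured on 10 spots per array like ALOX5. Its log2 intensity on A_23_P11685 (chromosome 1, 186957652 to 186957711) was 9.03 with siRNA-A, 9.21 with siRNA-B, 9.13 with control siRNA-1 and 9.29 with control siRNA-2. The groups overlapped, with a log2FC of -0.097 (SE 0.12, 95% interval -0.38 to 0.18). All 10 spots had a negative log2FC, from -0.18 to -0.026, but 0 passed an unadjusted p of 0.005 in limma, the lowest being 0.149, and the arrays overlapped in 7 of them.

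The cyclooxygenases form the common precursor of the prostanoids, PTGS1 as the constitutive and PTGS2 as the inducible enzyme. For PTGS1, A_23_P216966 (chromosome 9, 125155052 to 125155111) gave log2 intensities of 7.22 with siRNA-A, 7.60 with siRNA-B, 7.67 with control siRNA-1 and 7.73 with control siRNA-2. The knockdown arrays were both lower than either control, siRNA-A by the wider margin, and the log2FC of -0.29 (SE 0.14, 95% interval -0.61 to 0.037) did not pass (unadjusted p = 0.0756, adjusted p = 0.685 in limma). It was -0.097 without siRNA-A and -0.48 without siRNA-B. The other PTGS1 probe, A_24_P64167 (125157536 to 125157595), had 6.83, 6.98, 6.92 and 6.98 in the same order with overlapping groups and a log2FC of -0.049 (95% interval -0.31 to 0.21).

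PTGS2 was dim. On A_24_P250922 (chromosome 1, 186641469 to 186641528) its log2 intensity was 5.67 with siRNA-A, 5.72 with siRNA-B, 5.51 with control siRNA-1 and 5.67 with control siRNA-2, and 8, 8, 9 and 10 of its 10 spots were well above background on these arrays. The groups overlapped, and the log2FC was 0.10 (SE 0.12, 95% interval -0.16 to 0.36). Single PTGS2 spots had log2FC from 0.0064 to 0.28, all 10 positive, with 0 called and the lowest unadjusted p at 0.0532 in limma.

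Of the terminal synthases, TBXAS1, which makes the platelet activator thromboxane A2, differed most between the siRNAs. Its log2 intensity was 9.09 with siRNA-A, 9.62 with siRNA-B, 9.45 with control siRNA-1 and 9.47 with control siRNA-2. The knockdown arrays thus enclosed the controls, at a distance of 0.53 between siRNA-A and siRNA-B and 0.029 between the controls, and the log2FC was -0.11 (SE 0.17, 95% interval -0.48 to 0.27). With 1 array per siRNA, the difference between siRNA-A and siRNA-B has no test. PTGES, the inducible prostaglandin E synthase, was near background: A_24_P403417 (chromosome 9, 132501510 to 132501569) gave 5.09 with siRNA-A, 4.91 with siRNA-B, 5.23 with control siRNA-1 and 5.02 with control siRNA-2. It was not well above background with siRNA-A or siRNA-B and was so on 1 control array. No fold is therefore given for PTGES.

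**Figure D3:**
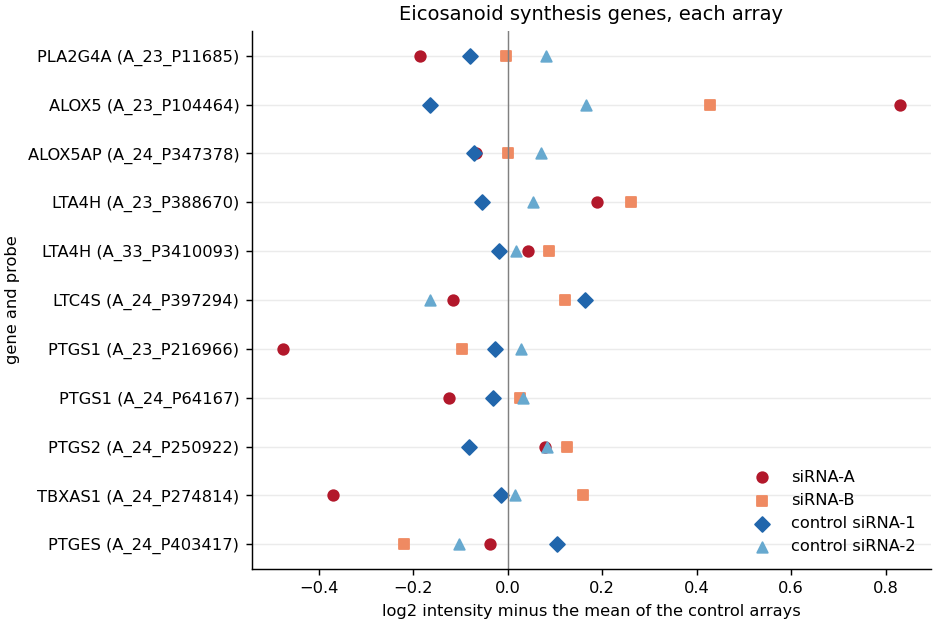
Log2 intensity of each of the 11 probes on each array, minus the mean of the control arrays (x axis), with 1 row per probe (y axis) and 1 symbol per array. The ALOX5 knockdown arrays lie at the right of their controls, and TBXAS1 and PTGS1 have siRNA-A at the left.

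Counted together, 1 of the 11 probes was called, against 1.32% of all probes (0.584% higher and 0.732% lower after knockdown). At an unadjusted p under 0.05 the count was still 1 of 11, or 9.09%, against 8.06% of all probes, and 0 of the 11 had an adjusted p under 0.05 in limma, against 0.118%, a share that was 0 in 9 of the 12 alternatives. The knockdown arrays lay beyond the control arrays in 4 of 11 probes, which is 36.4% against 36.6% of all probes. They were above in 3 and below in 1, against 15.2% and 21.4% of all probes. The median log2FC was -0.034 over the 11 probes and -0.018 over all probes. By branch it was 0.065 over the 5 leukotriene probes, of which 3 lay above the controls, and -0.11 over the 5 prostanoid probes, of which 1 lay below. Without PTGES, which was near background, the medians were -0.016 over 10 probes and -0.077 over the 4 remaining prostanoid probes. The median of the 11 probes turned to 0.012 to 0.049 under the 5 alternatives with another signal or normalization, and to 0.088 without siRNA-A.

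**Figure D4:**
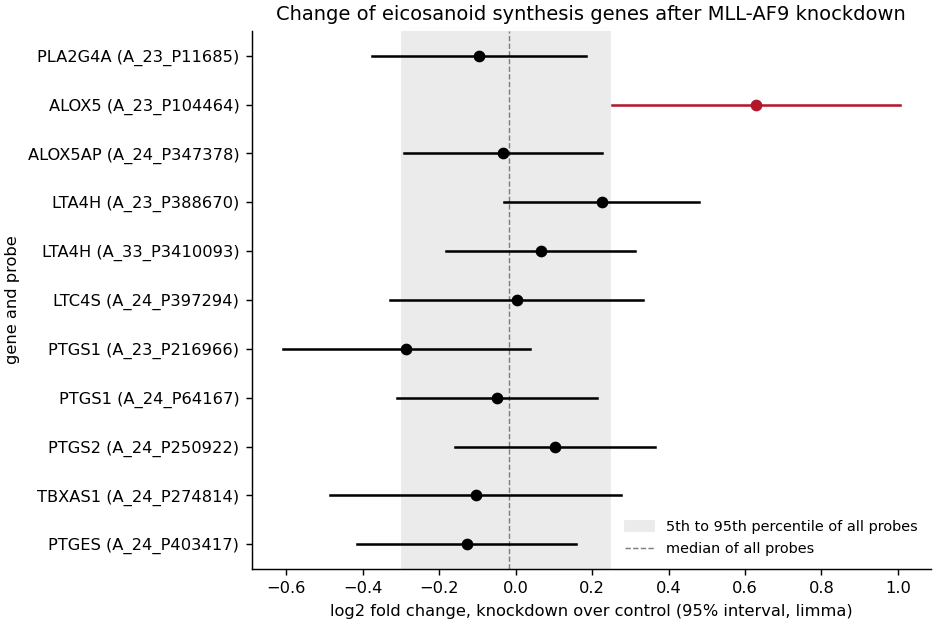
Log2FC after MLL-AF9 knockdown (x axis, points) with its 95% limma interval (bars) for the 11 probes (y axis). Grey marks the 5th to 95th percentile of all probes, -0.30 to 0.25, and ALOX5 (red) is the probe that passed an unadjusted p of 0.005; PTGES is drawn although it was not well above background after knockdown.

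The siRNAs did not give the same values. The log2 intensity was lower with siRNA-A than with siRNA-B in 9 of 11 probes, or 81.8%, against 61.7% of all probes, with a median difference of -0.072 against -0.060. ALOX5 was one of the exceptions, being 0.40 higher with siRNA-A. The other was PTGES. Over all probes the median distance was 0.139 between the knockdown arrays and 0.106 between the control arrays.

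The surrounding pathway was described with a further 62 genes for arachidonate release and handling, other lipoxygenases, leukotriene conjugation and breakdown, other prostanoid synthases, transport, and receptors. Of these, 51 had a probe analysed, 65 probes in all. At an unadjusted p under 0.005 in limma 0 of the 65 were called, against 1.32% of all probes, and 5 (7.69%) had a p under 0.05, of which 1 was higher and 4 were lower after knockdown. At that looser threshold the shares of all probes were 8.06%, 3.15% higher and 4.9% lower. Knockdown arrays lay above the controls in 9 probes and below in 11, or beyond them in 30.8%, against 15.2%, 21.4% and 36.6% of all probes, and overlapped in 45. The median log2FC of the 65 probes was 0.016.

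Of the genes that act upstream, the brightest probes gave log2FC of 0.069 for the lysosomal phospholipase PLA2G15 and -0.038 for LPCAT3, which puts arachidonate back into membranes. Over the 14 probes for arachidonate release the log2FC ranged from -0.16 to 0.27, and over the 8 for its handling from -0.083 to 0.25. COTL1, a protein that binds and stabilizes 5-lipoxygenase, had a log2FC of 0.12, and the 6 probes of its group, which holds the other lipoxygenases, lay between -0.32 and 0.13. In none of these groups was a probe called. MGST3, a glutathione transferase, had a log2FC of -0.0058, and the 10 probes for leukotriene conjugation, export and breakdown lay between -0.24 and 0.10.

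Among the other prostanoid synthases, both probes with a p under 0.05 were lower after knockdown. PTGDS, a prostaglandin D synthase, had 12.25 with siRNA-A, 12.56 with siRNA-B, 12.74 with control siRNA-1 and 12.77 with control siRNA-2 on A_33_P3298159 (log2FC -0.35, SE 0.13, unadjusted p = 0.0264, adjusted p = 0.554 in limma), while its other probe had a log2FC of 0.057. AKR1C3, a prostaglandin F synthase, had 7.46 with siRNA-A, 7.71 with siRNA-B, 7.85 with control siRNA-1 and 7.95 with control siRNA-2 (log2FC -0.31, SE 0.13, unadjusted p = 0.0356 in limma), a value that is uncertain because closely related AKR1C genes may bind the probe. Without siRNA-A the log2FC was -0.20 for A_33_P3298159 of PTGDS and -0.19 for AKR1C3. The 2 probes for prostanoid transport and breakdown had log2FC of -0.17 (ABCC4, an exporter of prostaglandins) and -0.13 (PTGR2, an enzyme of prostaglandin breakdown).

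The receptors were measured with 4 probes for leukotrienes and lipoxins and 12 for prostanoids. PTGER4, a receptor of prostaglandin E2, had log2 intensities of 13.31 with siRNA-A, 13.75 with siRNA-B, 13.24 with control siRNA-1 and 12.89 with control siRNA-2, with both knockdown arrays above the controls (log2FC 0.46, SE 0.17, unadjusted p = 0.0269, adjusted p = 0.557 in limma). Without siRNA-B this was 0.24, and without control siRNA-2 it was 0.29. TBXA2R, the thromboxane receptor, had 8.93, 9.17, 9.38 and 9.47 in the same order on A_23_P90357 (log2FC -0.37, SE 0.12, unadjusted p = 0.0149, adjusted p = 0.499 in limma), but 0.049 and 0.031 on its other probes. PTGER3, a further receptor of prostaglandin E2, had 5.09, 4.93, 5.17 and 5.52 on A_33_P3265749 (unadjusted p = 0.0429 in limma), which was well above background on 1 control array only, so that no fold is given. Its other probe, A_33_P3265744, had overlapping groups and a log2FC of -0.0020, but was not well above background with siRNA-B. Of the leukotriene receptors the brightest was CYSLTR1, which binds cysteinyl leukotrienes, with 10.13, 10.70, 10.20 and 10.29, siRNA-B being the highest and siRNA-A the lowest array, and a log2FC of 0.17. The leukotriene B4 receptors LTB4R and LTB4R2 had log2FC of 0.00092 and 0.028.

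**Figure D5:**
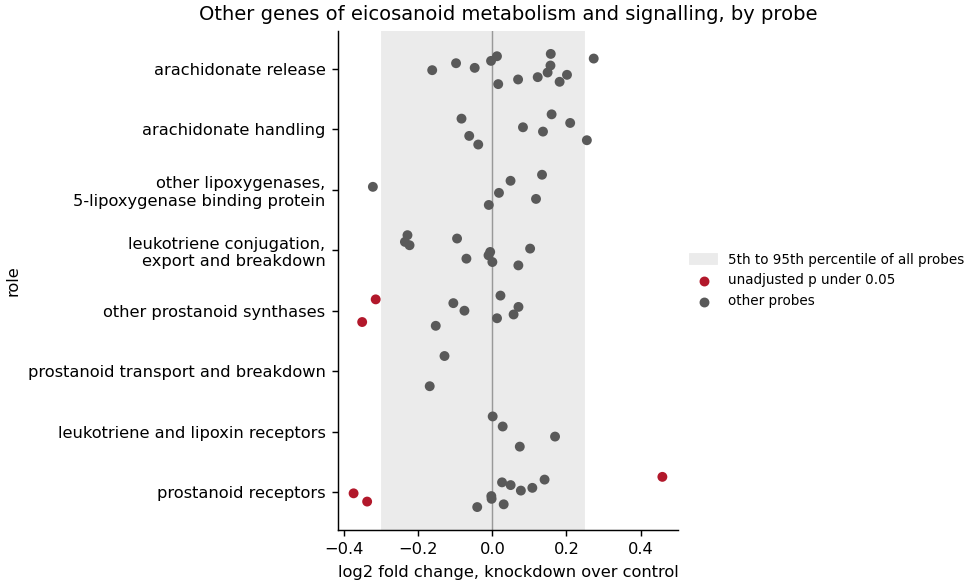
Log2FC after MLL-AF9 knockdown (x axis) of the 65 probes for other genes of eicosanoid metabolism and signalling, by role (y axis). Grey marks the 5th to 95th percentile of all probes, and the 5 probes with an unadjusted p under 0.05 (red) are PTGER4 at the right and TBXA2R, PTGDS, PTGER3 and AKR1C3 at the left; PTGER3 is drawn although it was near background.

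The probes whose pattern over the 4 arrays was most like that of ALOX5 were sought among 16513 named probes well above background on every array, by the root mean square distance of log2 intensities centred on their mean. The nearest was PDE4DIP on A_23_P200801, at a distance of 0.0206, with 8.04 with siRNA-A, 7.64 with siRNA-B, 7.08 with control siRNA-1 and 7.35 with control siRNA-2. A second PDE4DIP probe followed at 0.0660, and then LPL, which encodes lipoprotein lipase, at 0.0769 with 9.81, 9.56, 8.87 and 9.09 in the same order. Each of these repeated the order siRNA-A, siRNA-B, control siRNA-2, control siRNA-1, which their choice by likeness required.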

How the data were processed

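The authors deposited an intensity per spot without background correction or normalization, equal to the median pixel signal in 100% of spots, and a quality score, the spot weight, whose derivation is not given in the sources used here. Spots were extracted with Feature Extraction 10.5.1.1, per the submitters' processing notes. Of 44495 spots, 1377 control spots and 9795 spots of weight 0 were left out; 0 of the latter were well above background. Log2 means of identical spots entered weighted linear models without covariates in limma 3.58.1 (R 4.3.3). Calls took an unadjusted p under 0.005, the threshold of the study's methods, whose further t-test over the identical spots of a probe was not applied because those spots share the same RNA. Adjusted p are Benjamini-Hochberg values over all probes. All p are two-sided. On simulated data of 26219 probes, 99 of 100 log2 changes of 1 and 59 of 100 of 0.5 were called, and 0.55% of unchanged probes. The simulation drew independent errors from the spread estimated by limma, without weights and without effects of array or slide position. Its shares therefore check the fit and may not hold for the real arrays. Gene names are those of the array (FAM213B as C1orf93, PTGDR2 as GPR44). The genes and lists were chosen with earlier results of these data known. Named were all probes of the 9 genes, other pathway genes with an unadjusted p under 0.05, the brightest of each role, and the 3 probes nearest to ALOX5. PTGR2, LTB4R and LTB4R2 were added after their values were seen. Alternatives were the background-subtracted signal, unscaled or scaled to its 75th percentile, quantile, cyclic loess, and normexp (offset 50) with quantile normalization, no weights, only spots well above background, an intensity trend and leaving out each array. The number of arrays limits the precision.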

Additional observations from a re-analysis of the deposited data

How the results depend on the processing

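ALOX5 kept a positive log2FC in all 12 alternatives but lost its call in 9, with 0.71 (scaled background-subtracted signal), 0.68 (unscaled), 0.66 (quantile), 0.66 (cyclic loess), 0.61 (normexp with quantile) and 0.43 to 0.83 when single arrays were left out (0.43 when siRNA-A was omitted, 0.83 for siRNA-B, 0.46 for control siRNA-1, 0.79 for control siRNA-2). Its adjusted p in limma ranged from 0.230 to 1.00. The number of called probes of the 9 genes was therefore 0 in these 9 alternatives and 0 at an adjusted p under 0.05, against 1 at an unadjusted p under 0.05. Called spots fell from 7 to 0 (scaled), 0 (unscaled), 3 (quantile), 3 (cyclic loess), 4 (normexp with quantile) and 0 to 1 without single arrays. Over all probes 345 were called, 213 with the scaled signal, 78 to 242 without single arrays (88 when control siRNA-1 was omitted, 78 for control siRNA-2), 31 at an adjusted p under 0.05 (0 in 9 of the 12 alternatives, 30 to 49 in the other 3) and 2112 at an unadjusted p under 0.05. Of the other pathway probes 0 were called under any alternative, and 5 at an unadjusted p under 0.05. The median log2FC of the 11 probes was -0.034 and moved to 0.049 with the scaled signal and to -0.068 to 0.088 without single arrays. The median over all probes moved by less than 0.1 under each alternative.

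Uncalled values near 0 changed sign as follows. ALOX5AP had 0.075 (scaled), 0.041 (unscaled), 0.014 (quantile), 0.025 (cyclic loess), 0.021 (normexp with quantile) and -0.10 to 0.037 without single arrays (0.037 for control siRNA-2). LPCAT3 had 0.029 (scaled), 0.0088 (cyclic loess), 0.027 (normexp with quantile), and, with siRNA-A or control siRNA-1 omitted, 0.043 and 0.0069. MGST3 had 0.017 (scaled), 0.088 (quantile), 0.080 (cyclic loess), 0.069 (normexp with quantile), and -0.14 to 0.13 without single arrays (0.13 for siRNA-A, 0.023 for control siRNA-2). Without single arrays TBXAS1 ranged from -0.37 to 0.16 (0.16 for siRNA-A), LTC4S from -0.16 to 0.17 (-0.12 for siRNA-B, -0.16 for control siRNA-2), CYSLTR1 from -0.12 (siRNA-B) to 0.45, COTL1 from -0.039 (siRNA-B) to 0.27 and PLA2G15 from -0.036 (siRNA-B) to 0.18. PTGS1 (A_24_P64167) had 0.026 without siRNA-A. LTB4R had -0.045 (scaled), -0.078 (unscaled), -0.014 (normexp with quantile) and -0.086 to 0.088 without single arrays (-0.086 for siRNA-A, -0.026 for control siRNA-2), LTB4R2 ranged from -0.0017 (siRNA-B) to 0.058 and PTGR2 from -0.27 to 0.014 (control siRNA-2). The cause was not tested. Calls were also lost, with the direction kept, for the second MLLT3 probe in 6 alternatives, LPL in 6, PDE4DIP (A_23_P200801) in 9 and CD14 in 1 (without control siRNA-2, 1.03), and the MLL probe at -0.41 gained a call in 4. In the other 316 combinations of a probe and an alternative that were run, direction and call stayed as reported, and the second probes of PTGDS, TBXA2R and PTGER3, the other MLL probes and the uncalled markers were not run. Single arrays also moved the size of uncalled values, from -0.48 to -0.097 for PTGS1 (A_23_P216966), -0.19 to -0.0066 for PLA2G4A, 0.020 to 0.18 for PTGS2, 0.24 to 0.68 for PTGER4 and -0.29 to -0.052 for ABCC4. No paired analysis was possible because each array pooled 5 experiments and the labels match no knockdown array to a control array. After an omission the remaining array of that group was taken to have the spread of the other group. PTGES was not fitted with only spots well above background.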
